A study of Danio rerio with 10 samples.

Results

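The mir-15/16 family with the mir-457 genes is a set of pre-miRNAs (hairpin precursors of mature microRNAs), and here it was followed in livers of adult male zebrafish. Of the 272 pre-miRNA rows in a table of 32266 Ensembl genes, 7 belong to the set: 4 were given by identifier (dre-mir-15a-1, ENSDARG00000080168; dre-mir-15b, ENSDARG00000081182; dre-mir-15c, ENSDARG00000081366; dre-mir-457a, ENSDARG00000081987) and 3 by their symbol (dre-mir-16b, ENSDARG00000081252; dre-mir-16c, ENSDARG00000080783; dre-mir-457b, ENSDARG00000081375). The names mir15a-2 and mir16a found no row under those symbols. ABC livers came from 5 transgenic fish, Tg(fabp10a-pt-beta-cat), in which the hepatocyte promoter fabp10a drives activated β-catenin. The 5 WT livers came from wild-type fish of the same families without the transgene. All 10 fish were male and 4 months old, and a pathologist diagnosed hepatocellular carcinoma (HCC) in ABC and no significant abnormality in WT. Each liver was 1 small RNA library, so cells of every type in the liver are mixed, and a change in the number of cells of a type cannot be told apart from a change in RNA per cell.

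A microRNA gene is transcribed as a long primary RNA, cut to a hairpin in the nucleus and then to a short mature strand, which guides an Argonaute protein to messenger RNAs that pair with its seed near the 5′ end. Family members share that seed, so they can bind overlapping sets of messengers. In human cells, miR-15 and miR-16 are known for lowering proteins that advance the cell cycle or block apoptosis, among them cyclin D1 and BCL2, and the loss of a cluster of both is a classic lesion of chronic lymphocytic leukemia. Vertebrates keep these genes in small clusters of neighbouring hairpins, and mir-457 is a fish member of the group.

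In the RefSeq gene table (assembly GRCz12tu, a later build than that of the counts, used only for neighbours), mir16b lies next to mir15a-1 and dre-mir-15b next to mir457a, with 0 genes annotated between the hairpins of each pair. A further pair, mir15c and mir16a, lies inside smc4, a condensin subunit gene that in human also contains MIR15B and MIR16-2. The gene name table gives the symbol MIR15B to the row taken as dre-mir-15c (ENSDARG00000081366) and MIR16-2 to ENSDARG00000083213. It gives MIR15A both to the row taken as dre-mir-15a-1 (ENSDARG00000080168) and to ENSDARG00000081837. The last pair, mir16c and mir15a-2, lies in trim13, and mir457b has no other microRNA within 10 kb.

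Total counts per fish ranged from 1236439 to 2408262 in ABC and from 1423307 to 2609547 in WT. Rows of pre-miRNAs took between 93.1% and 97.5% of the counts assigned to genes in each library. A row counts all reads assigned to its hairpin, so reads of a mature strand and of its precursor are not told apart. A single row, ENSDARG00000083634, took 65.8% to 74.5% of the pre-miRNA counts in WT and 31.0% to 47.6% in ABC. The gene name table calls it mir124-1 after a neuronal microRNA, and 0 rows carry the symbol of miR-122, the main hepatocyte microRNA, so its name is doubtful. All 13 hepatocyte transcript rows looked up, fabp10a among them, had fragments in these libraries. The large row ENSDARG00000083634 fell in ABC (L2FC -1.59, standard error 0.20, adjusted p = 1.08e-04, edgeR's quasi-likelihood test), so values were scaled with TMM factors and are given as normalized counts in CPM, counts per 1000000 of the scaled pre-miRNA total. ABC was compared to WT with edgeR's quasi-likelihood test on the 144 pre-miRNAs that passed its count filter, with p-values adjusted by Benjamini-Hochberg over all of them. L2FC is the log2 fold-change of ABC over WT.

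All 6 members with reads were higher in ABC than in WT. In WT the set held 0.107% ± 0.0271 (SD, n = 5) of all pre-miRNA reads, and in ABC it held 0.578% ± 0.0965 (SD, n = 5), 5.38-fold more. Leaving the most abundant row out, the set held 0.352% ± 0.0678 (SD, n = 5) in WT and 0.961% ± 0.259 (SD, n = 5) in ABC, 2.73-fold more. These shares are not scaled by TMM. With that scaling, the summed count of the set was 1380 ± 269 CPM in WT and 4532 ± 1364 CPM in ABC (SD, n = 5 each), 3.28-fold more. The groups did not overlap by any of these measures, but the size of the rise depended on the scaling and on whether that row was counted. Sums over chosen members and their shares are descriptions and were not tested.

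Of the 7 rows, 6 passed the filter, and all 6 were called as upregulated (adjusted p under 0.05, absolute L2FC of at least 0.5), while 0 were called as downregulated. The row dre-mir-15a-1 passed the filter only because of its ABC fish, so its place among the 6 is not independent of its rise. With every row of at least 1 count kept, its L2FC was 1.89 (adjusted p = 0.00264, edgeR's quasi-likelihood test). Among all pre-miRNAs tested, 23.6% were called as upregulated, 34 in number, beside 28 downregulated, which makes 43.1% in either direction. Scaled by total count alone, the split was 65 up (45.1%) and 10 down, and the median L2FC of the 144 moved up by 0.78. The median L2FC of the 6 members was 1.79 (range 1.57 to 2.75), against -0.11 for all 144. In all 6, every ABC fish lay above every WT fish, which was so for 18.1% of the pre-miRNAs tested. Of the 138 pre-miRNAs outside the set, 15 had an L2FC as high as that of the lowest member. Because the members were chosen with earlier results of these data known, these counts and medians describe the set and test nothing. Neighbours and paralogs among the members may also share reads, so the 6 are not separate observations.

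**Figure D1:**
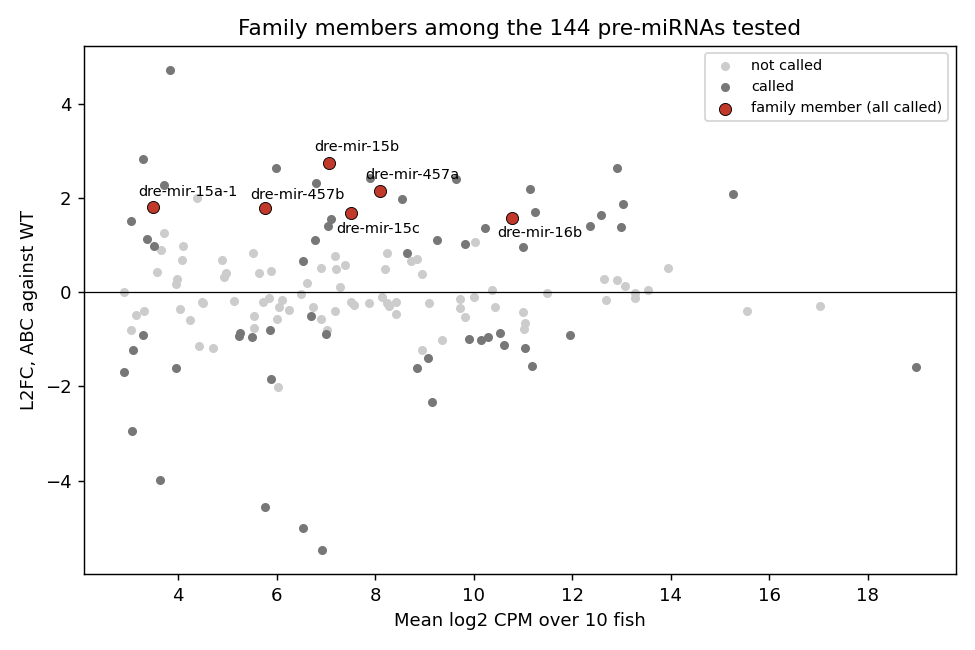
L2FC of ABC against WT (vertical axis) over the mean log2 CPM of the 10 fish (horizontal axis) for the 144 pre-miRNAs tested, with called pre-miRNAs in dark grey and the 6 family members in red. The members span a mean log2 CPM of 3.49 to 10.78 and an L2FC of 1.57 to 2.75, while the row with the highest mean has an L2FC below 0.

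Of the mir-15 genes, dre-mir-15b rose most. In WT its normalized count was 60.8, 50.8, 52.6, 55.8 and 38.3 CPM in replicates 1 to 5. In ABC it was 254, 326, 292, 474 and 391 CPM in replicates 6 to 10. The lowest ABC fish was thus 4.17 times the highest WT fish, and WT replicate 5 was the lowest of all. The mean rose from 51.7 ± 8.39 CPM in WT to 347 ± 87.0 CPM in ABC (SD, n = 5 each), with an L2FC of 2.75 (standard error 0.24, adjusted p = 8.47e-06 by edgeR's quasi-likelihood test). Among the 34 upregulated pre-miRNAs, it ranked 3 by L2FC and 2 by p-value.

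The rise of dre-mir-15c was smaller, and among the 6 members its ABC fish were the most alike. WT fish had 118, 82.3, 130, 114 and 69.3 CPM. ABC fish had 271, 340, 391, 311 and 334 CPM. Their coefficient of variation was 13.3%, beside 15.1% for dre-mir-457a and a median of 35.4% over all pre-miRNAs tested. In WT, that of dre-mir-15c was 25.1%, against a median of 23.9%. Its L2FC was 1.68 (standard error 0.23, adjusted p = 1.25e-04, edgeR's quasi-likelihood test). The row dre-mir-15a-1 had few reads, with raw counts of 5, 3, 14, 12 and 7 in WT and 26, 44, 39, 47 and 44 in ABC. All ABC counts lay above all WT counts. At the mean WT count, counting noise alone gives a coefficient of variation of 34.9%, and 43.3% was measured after scaling. Its L2FC of 1.80 (standard error 0.38, adjusted p = 0.00285, edgeR's quasi-likelihood test) is therefore the least precise of the 6.

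Of the mir-16 rows in the set, dre-mir-16b was the one with reads, and MIR16-2, outside the set, is described after the members. For dre-mir-16b, WT fish had 1195, 890, 1202, 1218 and 785 CPM. ABC fish had 2389, 2538, 5474, 3046 and 2287 CPM. ABC replicate 8 stood above the other ABC fish, which lay within 2287 to 3046 CPM, and the groups did not overlap. The L2FC was 1.57 (standard error 0.27, adjusted p = 7.05e-04, edgeR's quasi-likelihood test), the lowest of the 6, and 1.28 without ABC replicate 8. The row dre-mir-16c had 0 counts in all 10 fish, of 17482058 pre-miRNA counts in all, which allows up to 0.172 CPM without scaling (counting error only). The other row at 0 in every fish was ENSDARG00000081837, the second MIR15A. Hairpins with near-identical mature strands compete for the same reads, and how such reads were assigned is not given in the sources used here, so neither row can be read as silent and the division of reads between paralogs is uncertain.

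Both mir-457 genes rose. For dre-mir-457a, the neighbour of dre-mir-15b, WT fish had 126, 150, 160, 144 and 80.2 CPM. ABC fish had 486, 508, 607, 700 and 624 CPM. The lowest ABC fish was 3.03 times the highest WT fish, and the L2FC of 2.14 (standard error 0.23, adjusted p = 2.72e-05, edgeR's quasi-likelihood test) was the second of the set. For dre-mir-457b, which has no clustered partner, WT fish had 48.3, 23.2, 27.6, 35.3 and 16.4 CPM. ABC fish had 113, 85.4, 57.7, 103 and 160 CPM. Here the groups were closest, the lowest ABC fish being 1.19 times the highest WT fish, and the L2FC was 1.78 (standard error 0.35, adjusted p = 0.00153, edgeR's quasi-likelihood test). For each of the 6 members, the two-sided exact permutation test on the log2 normalized counts gave p = 0.00794, the smallest that 5 fish against 5 allow. This p-value is not adjusted and follows from the groups not overlapping, so it is no separate result. Of all pre-miRNAs tested, 18.1% had every ABC fish above every WT fish.

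**Figure D2:**
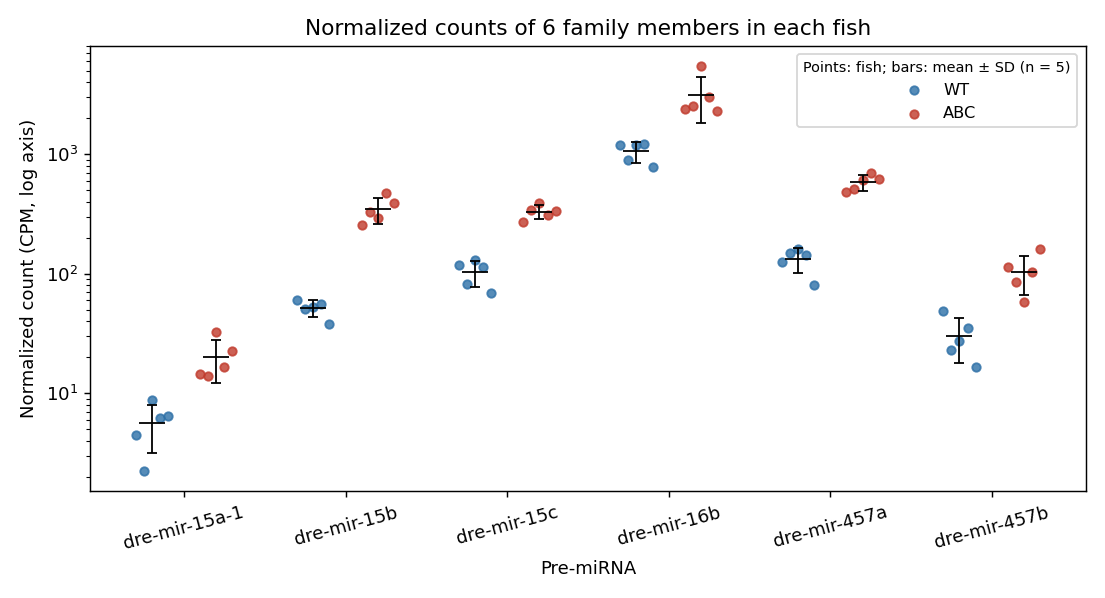
Normalized count (CPM, log axis) of each member with reads in each of the 5 WT and 5 ABC fish, with black bars for the mean ± SD. The gap between the groups is widest for dre-mir-15b and narrowest for dre-mir-457b, and 1 ABC fish of dre-mir-16b stands at 5474 CPM.

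The row MIR16-2, which the symbols of the set did not include, was also higher in ABC. Whether this row is mir16a, a name of the set that found no row, could not be settled from the name tables. Had it been counted, the set would hold 0.114% ± 0.0299 of all pre-miRNA reads in WT and 0.611% ± 0.0964 in ABC (SD, n = 5 each). It had 113, 74.0, 103, 99.4 and 29.2 CPM in WT and 206, 296, 275, 206 and 254 CPM in ABC, with an L2FC of 1.56 (standard error 0.33, adjusted p = 0.00264, edgeR's quasi-likelihood test). The log2 ratio of dre-mir-15c to MIR16-2 was 0.07, 0.15, 0.34, 0.19 and 1.25 in WT and 0.39, 0.20, 0.51, 0.59 and 0.40 in ABC. The groups overlapped, and WT replicate 5 stood apart. The WT mean of 0.40 ± 0.48 (SD, n = 5) fell to 0.19 ± 0.12 (SD, n = 4) without that fish, against 0.42 ± 0.15 (SD, n = 5) in ABC. This ratio was added after the values were seen and was not tested.

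The rise was not equal across members. A ratio of 2 members within 1 fish does not depend on how the library is scaled, so log2 ratios of raw counts were compared. The ratio of dre-mir-15b to its neighbour dre-mir-457a was -1.05, -1.56, -1.61, -1.37 and -1.07 in WT and -0.94, -0.64, -1.06, -0.56 and -0.67 in ABC. Only ABC replicate 8 fell within the WT range. The mean was higher by 0.56 in ABC (p = 0.0159 by a two-sided exact permutation test, n = 5 per group), with dre-mir-15b gaining on dre-mir-457a. For the other neighbours, dre-mir-16b to dre-mir-15a-1, the log2 ratio was 7.67 ± 0.70 in WT and 7.29 ± 0.35 in ABC (SD, n = 5 each). That difference of -0.38 did not exceed the spread (p = 0.333 by the same exact permutation test), and the few reads of dre-mir-15a-1 limit it. These 2 neighbour pairs were the only ratios tested, and their p-values are not adjusted.

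Across the 15 pairs of members with reads, the groups failed to overlap in 1, dre-mir-15b to dre-mir-15c. The same share over pairs of all pre-miRNAs tested was not computed. Whether 1 of 15 is more or less than usual is therefore not known, and this pair is only described. Its log2 ratio was -0.97 ± 0.23 in WT and 0.05 ± 0.39 in ABC (SD, n = 5 each), so that the mean reads of both rows were about equal in ABC while dre-mir-15c led in WT. Against dre-mir-16b, the ratio of dre-mir-15b was higher by 1.22 in ABC, with ABC replicate 8 again inside the WT range. In the plot of these ratios, dre-mir-15b had a higher mean in ABC against each of the other 5 members. That direction follows largely from its L2FC being the highest of the set and is no separate result.

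**Figure D3:**
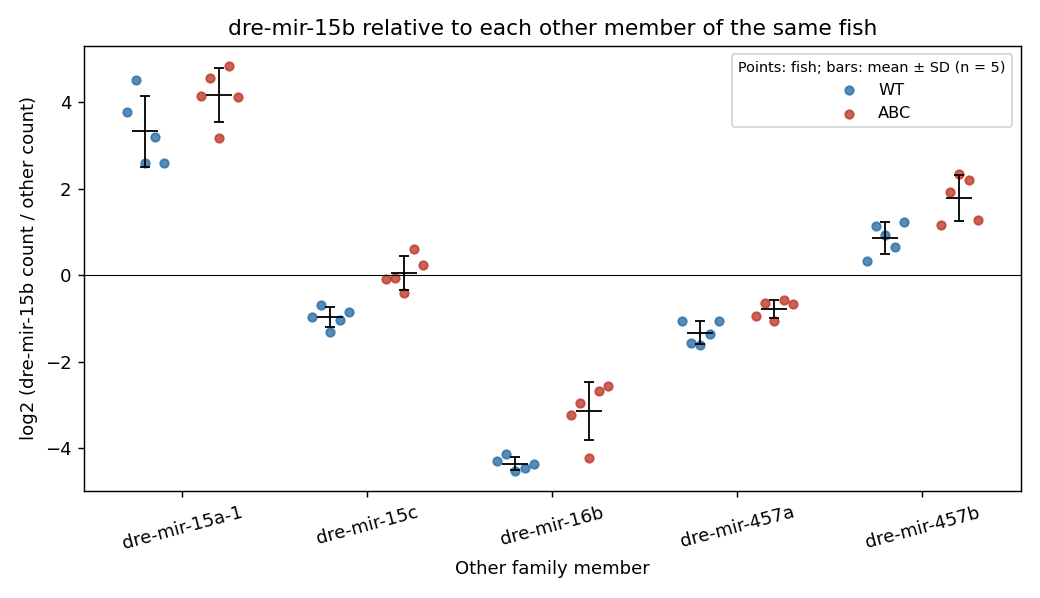
log2 ratio of the dre-mir-15b count to the count of each other member in the same fish (5 WT in blue, 5 ABC in red; black bars, mean ± SD). The ABC mean is higher in each of the 5 comparisons, and the groups separate for dre-mir-15c only.

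The make-up of the set's reads restates these differences, because each member's share depends on the counts of the others, and is no separate result. Reads of dre-mir-16b were 76.7% ± 1.72 of the set's counts in WT and 67.9% ± 7.34 in ABC (SD, n = 5 each). The other 4 ABC fish lay below every WT fish (lowest 59.9%), while ABC replicate 8, at 79.9%, lay above them all. Reads of dre-mir-15b were 3.33% to 4.24% in WT and 4.26% to 10.2% in ABC, so the groups only just failed to overlap. Those of dre-mir-457a overlapped, at 8.06% to 12.5% in WT and 8.86% to 16.3% in ABC. The shares of dre-mir-15c (7.38% ± 0.561 in WT, 7.55% ± 1.37 in ABC, SD, n = 5), dre-mir-457b and dre-mir-15a-1 also overlapped between the groups. These are shares of reads and do not rank the genes by molecules. ABC replicate 8 was also the ABC fish with the largest share of counts on ENSDARG00000083634, 47.6%, and the lowest TMM factor, 1.04 against 1.28 to 1.57. The part of these in its make-up was not tested.

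**Figure D4:**
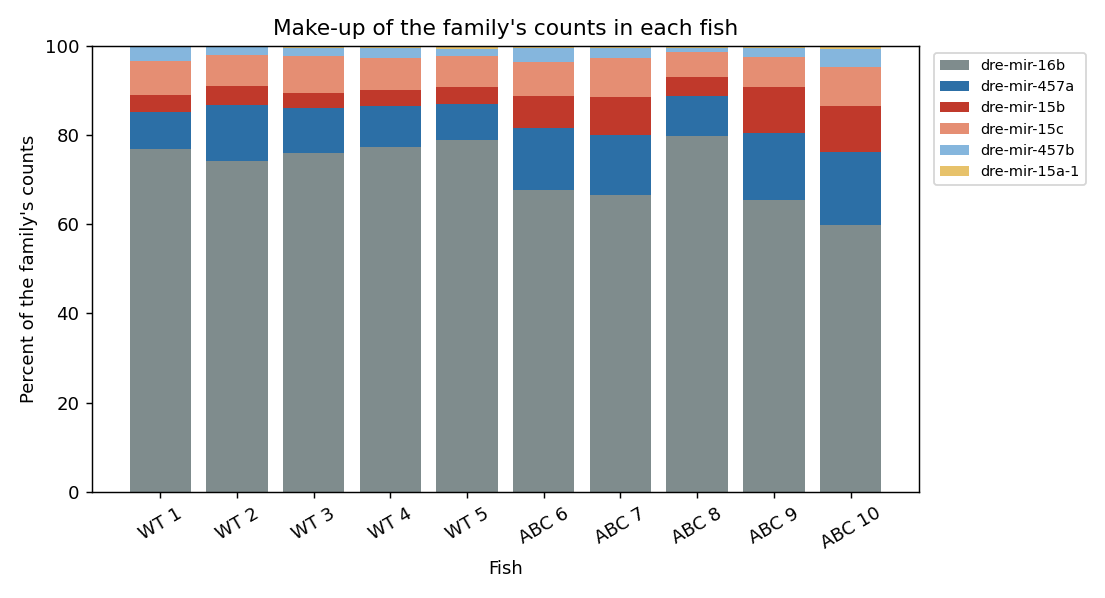
Percent of the set's raw counts held by each member (stacked bars to 100%) in each of the 10 fish. The WT fish are nearly uniform, with 74.2% to 78.8% on dre-mir-16b. Of the ABC fish, 4 of 5 have less on dre-mir-16b and ABC replicate 8 has more, at 79.9%. The share of dre-mir-15b is above every WT fish in all 5 ABC fish, only just so in ABC replicate 8.

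Outside the set, the 5 pre-miRNAs with the profile most like the mean of the members over the 10 fish were mir200a, MIR21 (ENSDARG00000082187), mir19d, dre-mir-146b-1 and MIR16-2. Likeness was the root mean square difference of log2 CPM profiles, each centred on its own mean. It was 0.33, 0.37, 0.37, 0.38 and 0.40 for these, against a median of 1.18 over the 138 others. The profiles keep the difference between ABC and WT, so nearness largely follows from an L2FC like that of the members. In the same order, the L2FC was 1.65, 2.19, 1.40, 1.86 and 1.56, each called as upregulated. Likeness within a group was not examined. The mir-200 genes are known from epithelia, miR-21 from tumors and inflammation, mir-19 from clusters linked to proliferation and miR-146 from the response to inflammation. Normalized counts of mir200a were 2677 to 4376 CPM in WT and 7599 to 14419 CPM in ABC, with an L2FC of 1.65 (adjusted p = 1.41e-04, edgeR's quasi-likelihood test). Among members, whose own mean is the common profile, dre-mir-15c was nearest to it (0.16) and dre-mir-15b farthest (0.45). Between them lay dre-mir-457a (0.23), dre-mir-16b (0.35), dre-mir-15a-1 (0.43) and dre-mir-457b (0.44). So mir200a, outside the set, was nearer than every member but dre-mir-15c and dre-mir-457a.

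The mir-103 and mir-107 genes are often grouped with miR-15/16 in mammals because of their similar 5′ ends, and neither row tested was called as upregulated. For mir107b, the mean fell from 1333 ± 307 CPM in WT to 264 ± 98.1 CPM in ABC (SD, n = 5 each), an L2FC of -2.33 (standard error 0.30, adjusted p = 1.18e-04, edgeR's quasi-likelihood test). It was called as downregulated, as were 19.4% of all pre-miRNAs tested. The L2FC of dre-mir-107 was -0.47 (adjusted p = 0.107, edgeR's quasi-likelihood test), and dre-mir-103 had too few reads to be tested, 2 to 11 per fish.

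Some markers of cell types, hepatocytes among them, also differed between the groups, and others did not. Their part in the rise of the set was not tested. Of 10 hepatocyte transcript rows with enough fragments for a test, 7 were called as downregulated (12.1% of all features in that fit were). The 13 rows together had 546 to 1359 raw counts in ABC and 1131 to 9166 in WT. Those sums overlapped between the groups and are not scaled, so they do not give a direction of change. Of 5 microRNAs of biliary and intestinal epithelium, 3 (mir200a, dre-mir-429 and 1 of 2 MIR200B rows) were called as upregulated, beside 23.6% of all pre-miRNAs. The L2FC was -1.22 for the other MIR200B row and 0.04 for mir141, neither called (adjusted p = 0.134 and 0.952, edgeR's quasi-likelihood test). The summed level of the 5 overlapped between the groups, at 16385 to 29221 CPM in ABC and 6362 to 17117 CPM in WT. Of 5 leukocyte microRNA rows (1 at 0, the second MIR142), 1 of the 4 tested was called as downregulated, beside 19.4% of all pre-miRNAs tested. This was mir150, known from mature lymphocytes, with an L2FC of -1.56. The L2FC was 0.82 for MIR223, 0.76 for mir155 and -0.29 for MIR142, none of them called (adjusted p = 0.0568, 0.0761 and 0.395, edgeR's quasi-likelihood test). The leukocyte sum, in which mir150 has most reads, was 1927 to 2906 CPM in ABC and 3783 to 5707 CPM in WT. The endothelial sum (2 rows, mir126a at 0) was 1155 to 1335 CPM in ABC and 1350 to 1901 CPM in WT. It rests on MIR126, which was not called (L2FC -0.31, adjusted p = 0.147, edgeR's quasi-likelihood test). All 3 exocrine pancreas microRNAs were called as downregulated, as were 19.4% of all pre-miRNAs tested. They summed to 24.3 to 103 CPM in ABC and 369 to 4798 CPM in WT. The muscle sum was 1.11 to 11.7 CPM in ABC and 17.2 to 108 CPM in WT (7 rows, 2 at 0). Most of its reads are of mir1-2, the only muscle row tested, called as downregulated with an L2FC of -2.95. The erythrocyte markers MIR144 and MIR451A were at 0 in every fish. The sum of 12 rows of neuronal microRNAs (9 at 0) overlapped between the groups, at 3.16 to 38.9 CPM in ABC and 7.29 to 57.6 CPM in WT. That sum leaves out ENSDARG00000083634, the row of doubtful name called mir124-1, which fell in ABC.

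Fragments of messenger RNA in these libraries said little about the genes around the set. Of 26 names of miR-15/16 targets known from human cells, 19 had a row and 1 passed the filter in a fit over all 481 features with enough reads, of which 17.5% were called as higher in ABC and 29.5% in either direction. This was bcl2a, named for the apoptosis blocker BCL2, with 124 reads in all 10 fish and an L2FC of -0.64 (adjusted p = 0.265, edgeR's quasi-likelihood test). None of the rows found for microRNA processing factors (9), for listed genes at the human or fish clusters (3) or for Wnt/β-catenin signaling (7) passed the filter. The cluster list did not hold LOC103909193, which contains mir16b and mir15a-1, or si:ch211-196f2.3, which contains dre-mir-15b and mir457a. Fragments of those genes were not looked up. The most abundant of these had 27 (DICER1), 7 (SMC4) and 53 (CTNNB1) reads over the 10 fish. Raw counts of the target rows summed to 168 in ABC and 107 in WT, and those of the Wnt/β-catenin rows to 69 and 26. Those of the processing factors summed to 31 and 37 and those of the cluster genes to 8 and 2, and none of these differences was tested. The sums are not scaled, so they do not give a direction of change. Of the target reads, 124 were of bcl2a, whose scaled L2FC was -0.64.

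The calls of the 6 members did not depend on the scaling or on 1 fish. Under DESeq2's own test, L2FC lay between 1.49 and 2.69, and with total count alone between 2.27 and 3.52. Relative to the median of all pre-miRNAs in the same fit, the range was 1.69 to 2.86 with TMM and 1.60 to 2.85 with total count alone. All 6 were called in each of the 10 fits that left out 1 fish.

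**Figure D5:**
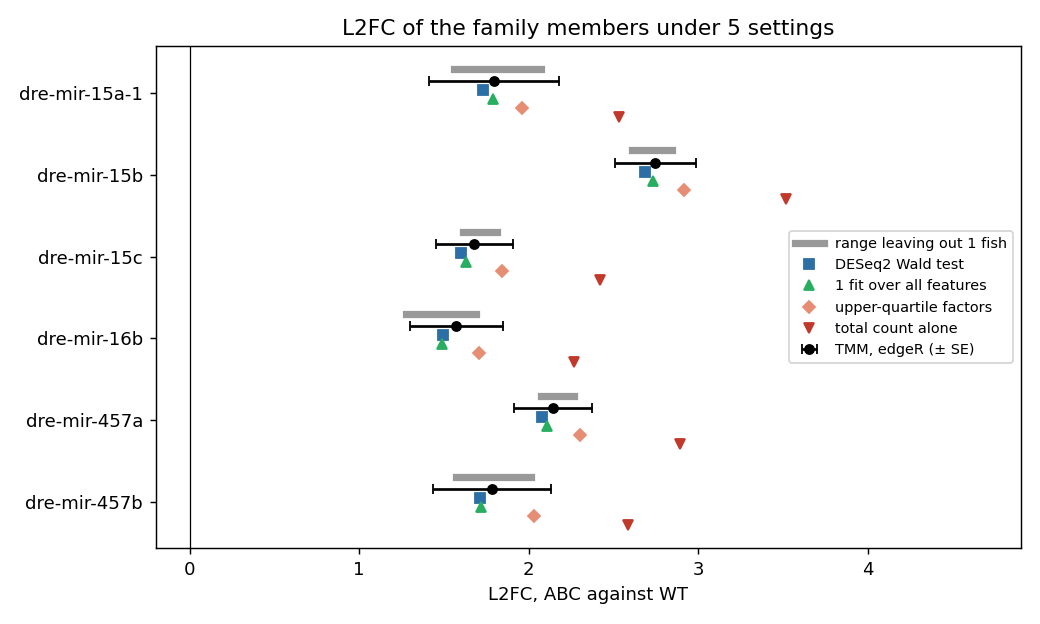
L2FC of each member with TMM scaling and edgeR (black, ± standard error), under 4 other settings (colored marks) and as the range over the 10 fits that leave out 1 fish (grey bars). Total count alone moves every member up by a similar amount, and the lowest grey bar, at 1.28, is that of dre-mir-16b.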

How the data were processed

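The authors prepared NEBNext small RNA libraries from total RNA of 10 livers for single-read sequencing. According to the methods and the submitters' processing notes, reads were aligned to GRCz10 (Novoalign is named) and counted with featureCounts and miRBase. How multi-mapped reads were handled and how adapters were trimmed is not given in the sources used here. The deposited table holds raw counts for 32266 Ensembl genes, of which 26433 were given a symbol, and 0 columns were left out. By symbol, 272 rows are pre-miRNAs, and 208 of them had reads.

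ABC and WT counts were compared with edgeR 4.0.16 under R 4.3.3: filterByExpr, TMM factors, glmQLFit and glmQLFTest without covariates, adjusting by Benjamini-Hochberg over the 144 rows kept. The script was tested on simulated data. The standard error of an L2FC is its size over the square root of edgeR's F. DESeq2 1.42.0, other scalings, filters and thresholds and leaving out each fish were alternatives, and adding MIR16-2 to the set was chosen after seeing the data. Replicates of a group were not repeat libraries (chi-square per degree of freedom at least 107). Depth of 1236439 to 2609547 counts limits precision for rows with few reads, and p-values reflect the spread between fish.

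Named were the members, the mir-103 and mir-107 genes, the 5 most similar profiles, the most abundant row and listed transcripts that were tested. Other rows, such as MIR16-2, marker rows and the most abundant untested transcripts, were named after their values were seen. Members and lists were chosen with earlier results of these data known. Sequences were not used here, so sharing of a seed was not checked.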

Additional observations from a re-analysis of the deposited data

Results flagged for a closer look

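Among 20 measures of the set and MIR16-2, each examined in both groups (40 groups of 5 fish), 3 groups held a fish whose gap to the rest passed Dixon's limit, and chance gives 2. In ABC replicate 8, dre-mir-16b reached 5474 CPM, against 2287 to 3046 CPM in the other ABC fish. Without that fish the L2FC of dre-mir-16b was 1.28. In ABC replicate 10, the log2 ratio of dre-mir-16b to dre-mir-15a-1 was 6.67, where the other 4 had 7.37 to 7.51, and it rests on 44 reads of dre-mir-15a-1. In WT replicate 5, the log2 ratio of dre-mir-15c to MIR16-2 was 1.25, where the other 4 had 0.07 to 0.34, and it rests on 32 reads of MIR16-2.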

How the results depend on the processing

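No paired analysis was run because the labels do not pair ABC fish with WT fish. The letter in the code of each sample title also differs between the groups, and its meaning is not given. Each member kept its direction and its call under all 18 alternatives run for it, and the number called was 6 in all 21 run for that count. The number of pre-miRNAs called was 46 to 75 over the alternatives that kept every fish and 54 to 65 without 1 fish. Without 1 fish, L2FC was 1.56 to 2.07 for dre-mir-15a-1, 2.61 to 2.84 for dre-mir-15b, 1.61 to 1.81 for dre-mir-15c, 1.28 to 1.69 for dre-mir-16b, 2.07 to 2.27 for dre-mir-457a and 1.57 to 2.01 for dre-mir-457b. The share of pre-miRNA counts held by the set was 0.471 percentage points higher in ABC (0.438 to 0.503 without 1 fish), and 0.610 higher with the most abundant row left out, where the smaller total enlarges every share. With MIR16-2 added to the set, an alternative chosen after seeing the data, it was 0.497 higher. The difference in the ratio of dre-mir-15b to dre-mir-457a was 0.49 to 0.63 and that of dre-mir-16b to dre-mir-15a-1 was -0.56 to -0.14 without 1 fish. Summing rows of identical mature sequence was not run, since it needs the mature sequences. Few reads limit dre-mir-15a-1, and the division of reads between paralogs is uncertain for every member.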
